A study of Mus musculus with 3 samples.

Results

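Of 14304 regions marked by H3K27ac in wild-type MIN6 cells within 1 kb of an end of a protein-coding gene, 1274 held a wild-type peak and no peak of either Arid1a knockout. These wild-type-only gene-end regions are described here. They were found by joining overlapping peaks of the 3 libraries into 52938 merged regions and keeping those with a wild-type peak, no homozygous or heterozygous knockout peak, and a distance of at most 1 kb to either end of a gene in a table of 21887 genes (GRCm38.p6). They lay near 1238 genes. Of these, 553 had no peak of either knockout within 1 kb of either end, and are called genes left with none. The other 685 kept another gene-end peak in at least 1 knockout. The members were chosen by the peak calls of these same libraries, so those calls are described below with no test.

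MIN6 is a mouse insulinoma line used as a model of the pancreatic beta cell. The labels give all 3 libraries the same protocol, in which the cells carried Cas9 and received a lentiviral guide RNA against Arid1a, were selected with puromycin, and were grown as single clones that PCR and Western blotting sorted into homozygous knockout, heterozygous knockout and wild type. The wild-type peak names carry the tag GAL4, which no label explains, so it is not known whether that clone received the Arid1a guide or another one. Each genotype has 1 library, made with an antibody to H3K27ac, so genotype, clone and library cannot be told apart and no difference has a replicate check. The study is titled for a link between Arid1a loss, beta-cell regeneration and EGF signaling.

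Acetylation of histone H3 at lysine 27 is deposited by p300 and CBP and marks active gene starts and enhancers. ARID1A is the DNA-binding subunit of the canonical BAF complex, a SWI/SNF chromatin remodeller that moves nucleosomes and has been tied chiefly to enhancers. Gene starts fall broadly into CpG-rich ones, common at widely expressed genes, and CpG-poor ones, common at genes used in few cell types.

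The starts of 6 genes left with none are shown because their regions were among the highest of that class and covered the RefSeq start. Each runs from 250 bases before to 50 bases after the start, 5′ to 3′ on the gene's strand, from RefSeq on GRCm38.p6, with CpG dinucleotides in capitals. Ninl lies at chr2:151009349-151009648 (minus strand), Nsun7 at chr5:66259648-66259947 (plus strand) and Me3 at chr7:89632568-89632867 (plus strand). Dnah7a lies at chr1:53706735-53707034 (minus strand), Cfap69 at chr5:5664183-5664482 (minus strand) and Rpgr at chrX:10216404-10216703 (minus strand).
Ninl: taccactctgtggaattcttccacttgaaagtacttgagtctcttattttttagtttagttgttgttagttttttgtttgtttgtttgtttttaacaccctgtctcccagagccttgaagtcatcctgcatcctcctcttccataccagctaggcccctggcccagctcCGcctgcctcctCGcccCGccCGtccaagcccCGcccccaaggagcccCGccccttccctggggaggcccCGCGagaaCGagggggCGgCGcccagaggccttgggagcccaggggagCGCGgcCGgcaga
Nsun7: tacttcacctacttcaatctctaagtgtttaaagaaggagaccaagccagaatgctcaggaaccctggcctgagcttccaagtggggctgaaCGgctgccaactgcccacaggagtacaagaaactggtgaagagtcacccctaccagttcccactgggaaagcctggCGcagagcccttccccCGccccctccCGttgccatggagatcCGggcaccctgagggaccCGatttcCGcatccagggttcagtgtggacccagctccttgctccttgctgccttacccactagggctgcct
Me3: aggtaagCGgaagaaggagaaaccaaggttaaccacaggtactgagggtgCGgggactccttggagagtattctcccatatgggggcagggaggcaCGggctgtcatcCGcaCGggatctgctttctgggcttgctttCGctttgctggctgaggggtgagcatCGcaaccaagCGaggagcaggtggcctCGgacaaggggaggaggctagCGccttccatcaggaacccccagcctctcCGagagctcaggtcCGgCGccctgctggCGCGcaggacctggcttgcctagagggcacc
Dnah7a: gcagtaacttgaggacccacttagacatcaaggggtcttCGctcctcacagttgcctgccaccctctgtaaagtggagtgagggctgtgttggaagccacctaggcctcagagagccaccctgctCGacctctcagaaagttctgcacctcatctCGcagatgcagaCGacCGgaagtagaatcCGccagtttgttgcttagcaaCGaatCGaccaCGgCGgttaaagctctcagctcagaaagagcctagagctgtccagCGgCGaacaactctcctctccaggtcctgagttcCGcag
Cfap69: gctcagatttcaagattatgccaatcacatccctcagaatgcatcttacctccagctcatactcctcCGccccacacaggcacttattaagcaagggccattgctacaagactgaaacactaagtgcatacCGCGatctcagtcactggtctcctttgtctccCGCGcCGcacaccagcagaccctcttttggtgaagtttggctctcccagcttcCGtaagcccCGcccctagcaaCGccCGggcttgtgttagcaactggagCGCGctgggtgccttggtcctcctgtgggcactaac
Rpgr: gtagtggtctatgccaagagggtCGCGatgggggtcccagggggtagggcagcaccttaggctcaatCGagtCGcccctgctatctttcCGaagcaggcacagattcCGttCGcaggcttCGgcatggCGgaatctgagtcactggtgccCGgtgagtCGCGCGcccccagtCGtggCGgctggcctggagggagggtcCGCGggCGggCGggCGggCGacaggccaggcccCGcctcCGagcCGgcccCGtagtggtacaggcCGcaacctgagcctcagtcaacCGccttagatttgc

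These 6 windows differ in CpG content, from 7 CpG dinucleotides in Nsun7 to 27 in Rpgr. The ratio of observed to expected CpG was 0.281 in Nsun7, 0.519 in Me3, 0.549 in Ninl, 0.555 in Cfap69, 0.564 in Dnah7a and 0.792 in Rpgr. Only Rpgr reached 0.6, the ratio used here to call a start CpG-rich. The wild-type summit lay downstream of the start at all 6 genes, from 7 bp in Me3 to 170 bp in Rpgr.

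The wild-type-only call was less common at gene ends than elsewhere. It was made for 8.91% of the wild-type regions at gene ends (95% Wilson interval 8.45% to 9.38%, counting error only). Away from gene ends it was made for 10967 of 25585 regions (42.9%), and over all wild-type regions for 30.7%. Peaks of all 3 libraries were found in 11478 gene-end regions (80.2%), called constant below. A further 849 gene-end regions held a homozygous knockout peak but no heterozygous one, and 703 held a heterozygous knockout peak but no homozygous one. By gene, 10.8% of the 11442 genes with a wild-type gene-end region had a wild-type-only one, and 4.83% were left with none.

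**Figure D1:**
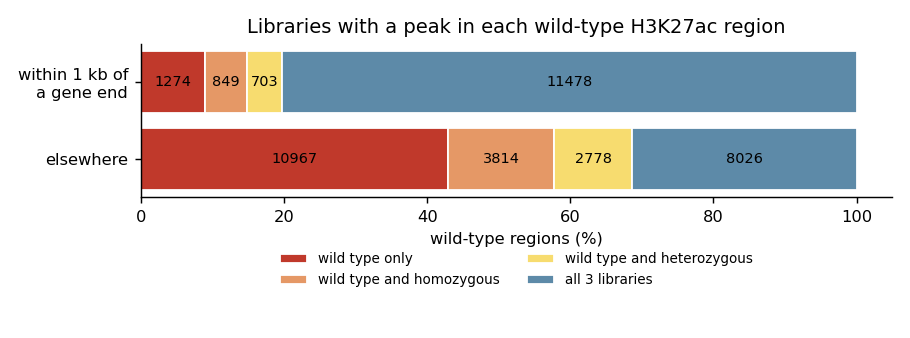
Share of wild-type H3K27ac regions (horizontal axis, %) by the libraries with a peak in them, within 1 kb of a gene end and elsewhere, with the number of regions in each bar section. The wild-type-only section holds 8.91% at gene ends and 42.9% elsewhere.

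A private gene-end region is not particular to wild type. By the same rule, 616 gene-end regions (4.68%) had a peak in the homozygous knockout only and 413 (3.23%) in the heterozygous knockout only, beside the 1274 (8.91%) of wild type. The wild-type list was also the longest, with 34298 peaks in the homozygous knockout, 31365 in the heterozygous knockout and 41490 in wild type. The commonest background recovered from the peak statistics was 1.73 reads per position in each knockout and 2.17 in wild type, a ratio of 1.25. Cutting every list to 31365 peaks gave 669 private regions in the homozygous knockout (5.20%), 628 in the heterozygous knockout (4.91%) and 748 in wild type (5.69%). Thinning multiplied each wild-type pile-up and background by 0.797, with no reads drawn at random. With wild-type pile-ups thinned to the knockout background and a -log10 p floor of 10, the homozygous knockout had 692 (5.39%), the heterozygous knockout 474 (3.83%) and wild type 864 (6.53%). With a floor of 15, a setting chosen after seeing the data, the order turned for the homozygous knockout, which had 761 (6.46%), while the heterozygous knockout had 407 (3.72%) and wild type 639 (5.46%). Genes with a private region and no gene-end peak in the other libraries numbered 189 for the homozygous knockout, 158 for the heterozygous knockout and 553 for wild type. In the same order, shortened lists gave 226, 251 and 377. Thinned pile-ups gave 236, 203 and 422 with the floor of 10, and 323, 190 and 375 with the floor of 15. Depth and genotype cannot be told apart in these libraries.

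The MIN6 label held in the marker genes, and Arid1a itself kept its gene-end peaks. Of 16 beta-cell markers, 14 had a gene-end peak in the homozygous knockout, 13 in the heterozygous knockout and 14 in wild type. None of the 4 endothelial, 6 fibroblast, 2 delta-cell or 1 PP-cell markers had one in any library. Of 5 alpha-cell markers, 2 had one in the homozygous knockout, 0 in the heterozygous knockout and 2 in wild type. Of 7 acinar markers 1 had a gene-end peak in the heterozygous knockout alone, 1 duct marker of 5 had one in each library, and of 6 immune markers 1 had one in the homozygous knockout, 2 in the heterozygous knockout and 2 in wild type. The stronger region at Arid1a (chr4:133756961-133757648) had a fold enrichment of 3.53 in the homozygous knockout list, 2.98 in the heterozygous knockout list and 3.18 in the wild-type list. Acetylation at that gene does not check the deletion.

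The wild-type-only regions were weak and narrow beside the constant gene-end regions. Fold enrichment and -log10 q are the authors' own values, used here to rank peaks within 1 list. The median wild-type fold was 5.03 in the 1274 regions and 8.18 in the constant gene-end regions, and the median width was 323 bp against 740 bp. The median pile-up, the number of fragments stacked at the summit, was 29 in the wild-type-only regions and 92 in the constant ones. A -log10 q at or above the median of the wild-type list was reached by 205 wild-type-only regions (16.1%) and by 10351 constant ones (90.2%). Regions with 1 knockout peak lay between, at 33.1% with the homozygous knockout and 31.7% with the heterozygous knockout. Their median folds of 5.18 and 5.46 and median widths of 397 and 391 bp were near those of the wild-type-only regions. Wild-type-only regions away from gene ends had a median fold of 4.95 and a median width of 348 bp.

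Genes left with none and genes that keep another peak differed in these values too. The 605 regions belonging only to genes left with none had a median wild-type fold of 5.71 (range 1.99 to 14.2) and a median width of 387 bp. The 643 regions belonging only to genes that keep a peak had a median fold of 4.38 (range 1.7 to 11.8) and a median width of 284 bp. The pile-up ran the other way, with a median of 25 in regions of genes left with none and 34 in regions of genes that keep a peak. A further 26 regions belonged to a gene of each kind. A region is called strong below where its -log10 q is at or above the wild-type median and no knockout peak lies within 1 kb. Strong regions numbered 160 in all, 128 of them at genes left with none and 26 at genes that keep a peak.

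**Figure D2:**
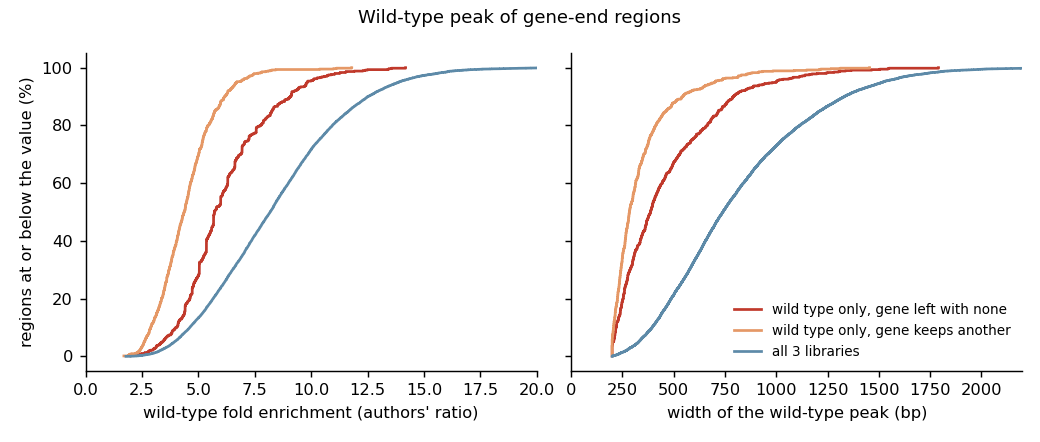
Cumulative share of gene-end regions (vertical axis, %) by wild-type fold enrichment (left, the authors' ratio) and by width of the wild-type peak in bp (right). The curve of genes left with none (605 regions, median fold 5.71) lies between that of genes that keep another peak (643 regions, 4.38) and that of constant regions (11478 regions, 8.18).

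The thresholds passed through a continuous range of values. The members nearest to the distance limit were near Thsd7a (997 bp) and Cysrt1 (1000 bp), and the nearest regions outside it were near Bod1l (1003 bp) and Bmp1 (1009 bp). The smallest gap to a knockout peak inside the rule was 13 bp, at Rapgef4. A region at Smtnl2 overlapped a knockout peak by 17 bp and was therefore no member. The weakest member, at Pip5k1b, had a -log10 q of 3.20.

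The split between the classes of gene was mostly a split in distance to the nearest knockout peak. At genes left with none, the median distance from the region to a peak of either knockout was 26741 bp (quartiles 11450 and 66158 bp), and 92 of 605 regions (15.2%) lay more than 100 kb away. At genes that keep a peak the median was 259 bp (quartiles 172 and 852 bp), and 455 of 643 regions (70.8%) had a knockout peak within 500 bp. The class rule itself keeps most near peaks out of the genes left with none, so the lower end of this gap is set by the rule and the upper end is not. Only 17 of the 605 regions had a knockout peak within 1 kb.

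**Figure D3:**
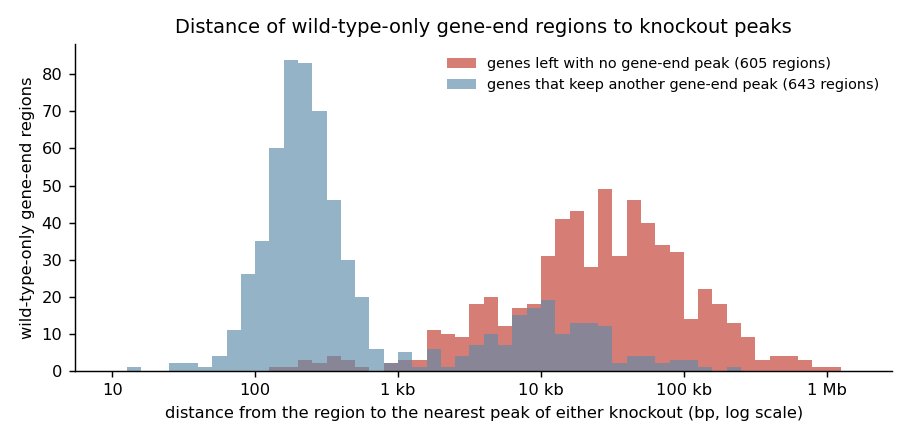
Number of wild-type-only gene-end regions (vertical axis) by distance to the nearest peak of either knockout (horizontal axis, bp, log scale). Regions of genes that keep another peak gather near the median of 259 bp and regions of genes left with none spread around 26741 bp.

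The strongest regions of the genes left with none lay far from any knockout peak, mostly at gene starts. Ninl encodes a ninein-like centrosomal protein, and its region (chr2:151008834-151009420) covered the start. It held no peak in the homozygous knockout (nearest 29367 bp away) or the heterozygous knockout (nearest 29336 bp away), and a wild-type peak with a fold of 14.2 and a pile-up of 44. Nsun7, a member of the NOL1/NOP2/Sun family of RNA methyltransferases, had a wild-type fold of 13.4 at chr5:66259678-66260426. Its nearest peaks lay 189195 bp away in the homozygous knockout and 189233 bp away in the heterozygous knockout. Me3, the mitochondrial NADP-dependent malic enzyme, had a fold of 13.4 at chr7:89632555-89633077, with the nearest peaks 59046 bp away in the homozygous knockout and 59056 bp away in the heterozygous knockout. None of these 3 genes had a knockout peak anywhere between its ends.

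Several of the leading genes encode parts of cilia or flagella. Dnah9, an outer-arm axonemal dynein heavy chain, had a wild-type fold of 13.6 at chr11:66167973-66168496, 85 bp from its start. It was the only one of the 12 leading genes with knockout peaks between its ends, namely 2 in the homozygous knockout, 5 in the heterozygous knockout and 8 in wild type. Dnah7a, an inner-arm dynein heavy chain, had regions at chr1:53706532-53707347 (fold 12.4, pile-up 108) and chr1:53706030-53706345 (fold 5.58). The gene has the near-identical copies Dnah7b and Dnah7c, and how the authors placed reads that match more than 1 copy is not stated, so its values are uncertain. Cfap69, a protein of the sperm flagellum and olfactory cilia, and Steap2, a metalloreductase, share the region chr5:5663754-5664434 (fold 11.9), which covers the start of Cfap69 and lies at the far end of Steap2. Steap2 had a second region at its own start with a fold of 8.15. Rpgr, a GTPase regulator of the photoreceptor connecting cilium, had the most fragments of these genes, with a pile-up of 120 and a fold of 11.5 at chrX:10216003-10216787.

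The remaining leading genes had other roles. Rbm11, an RNA-binding splicing regulator, had a fold of 12.5 at chr16:75592892-75593336. Zfp114, a zinc finger gene of a family with many similar copies, had a fold of 12.3 at chr7:24174989-24175276, at an end whose strand is not in the table used. Dazl, a germ-cell RNA-binding protein, had a fold of 11.5 at chr17:50292253-50292762, 858 bp from its start. Plscr4, of the phospholipid scramblase family, had a fold of 11.3 at chr9:92457553-92458240. For all 12 leading genes the nearest homozygous or heterozygous knockout peak was at least 29336 bp from the region.

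**Figure D4:**
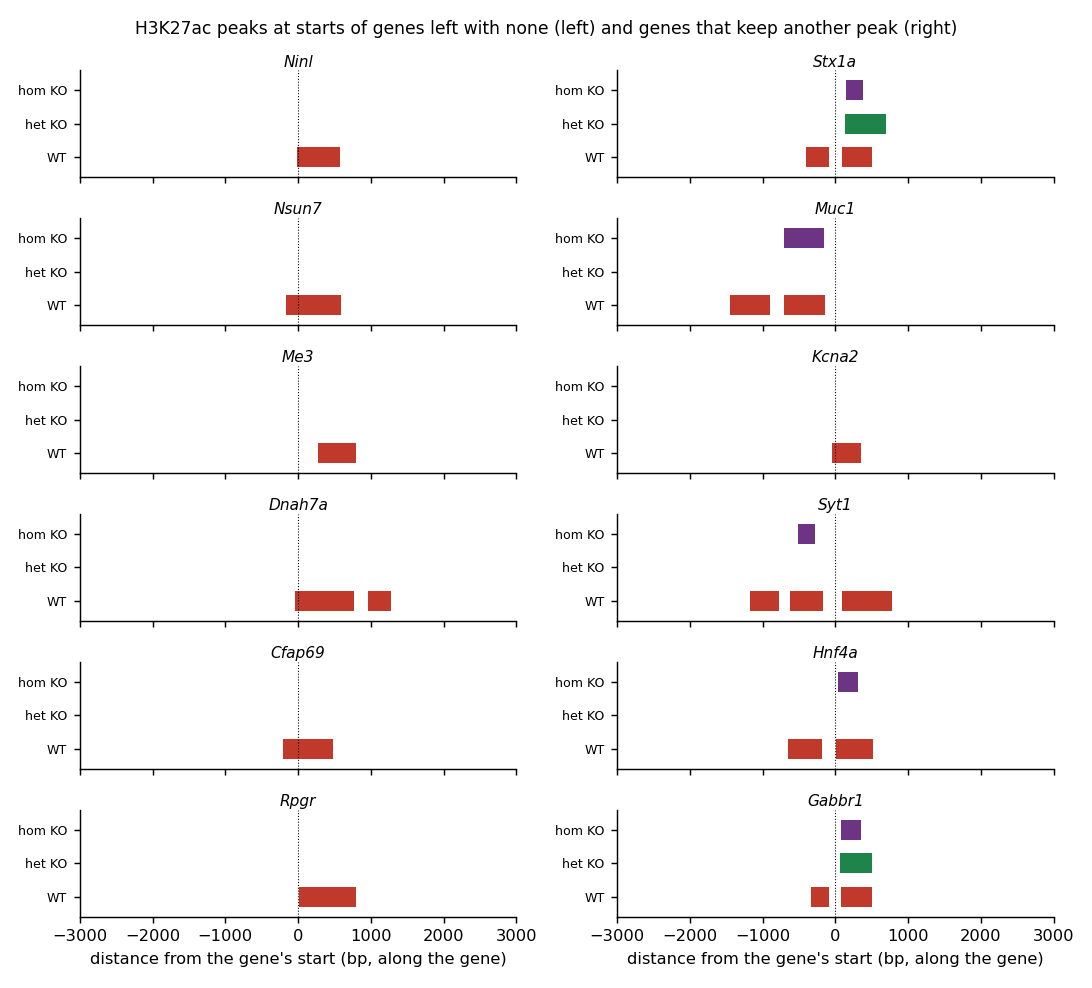
Peaks (bars) within 3 kb of gene starts in the homozygous knockout, heterozygous knockout and wild type, by distance from the start in bp along the gene. Genes left with none (left column) have only wild-type bars, while Stx1a, Muc1, Syt1, Hnf4a and Gabbr1 (right column) have a knockout bar beside the wild-type-only one; the knockout peaks of Kcna2 lie at its far end, outside the window.

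Most genes left with none were bare of knockout peaks along their whole length. Of the 553, 391 (70.7%) had no knockout peak between their ends, 97 had peaks in both knockouts, 42 in the homozygous knockout only and 23 in the heterozygous knockout only. In wild type 491 of them had a peak there, which includes the member region itself where it lies inside the gene. The strand was known for 424 of the 553 genes, and 370 had a member region at the start. Of 650 pairs of a region and a gene left with none, 125 (19.2%) had the region covering an annotated start, against 22 of 729 pairs (3.02%) for genes that keep a peak and 38.8% of the constant pairs.

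Genes with 3 wild-type-only regions were few. Foxf2, a forkhead transcription factor of mesenchyme, had 3 around its start, with folds of 3.29, 3.02 and 1.99 but pile-ups of 140, 133 and 90. The nearest knockout peaks lay 148800 bp away in the homozygous knockout and 149773 bp away in the heterozygous knockout. Gcnt3, a mucin-type glycosyltransferase, had regions at both ends, with folds of 4.79, 6.46 and 6.38. Nrp1, the neuropilin co-receptor for semaphorins and VEGF, had 3 regions of fold 3.12 to 3.43, and Camk2a, a calcium/calmodulin-dependent kinase, had 3 of fold 4.53 to 7.72. All 4 were left with none. Efnb1, an Eph receptor ligand, and Ptpn1, the phosphatase PTP1B, had 3 each and kept a peak at the start. That of Efnb1 was absent in the homozygous knockout, with a fold of 3.86 in the heterozygous knockout and 4.58 in wild type.

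At genes that keep another peak, the wild-type-only region was usually a small neighbour of a larger one. The kept peak stood at the same end of the gene in 524 of 685 genes (76.5%). The median distance from the member region to the gene's own knockout peak was 230 bp, and it was at most 500 bp in 504 genes (73.6%). In 659 genes the kept region held a wild-type peak as well, and the highest wild-type fold among such kept regions had a median of 8.58. Both knockouts had a gene-end peak in 567 of the 685 genes, the homozygous knockout alone in 58 and the heterozygous knockout alone in 60. Joining peaks up to 500 bp apart took the genes of this class to 178, while the genes left with none numbered 537.

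Some genes of this class differed between their ends. In 111 of 685 genes (16.2%) the member region was at the far end and a knockout peak remained at the start, and in 20 the reverse held. Per1, a circadian clock repressor, had a wild-type-only region 528 bp past its far end (fold 11.1) and a start region with folds of 2.45 in the homozygous knockout, 2.89 in the heterozygous knockout and 3.54 in wild type. Mtg2, a GTPase of mitochondrial ribosomes, had a wild-type-only far-end region of fold 8.43. Zcwpw1, a histone reader of meiosis, had one of fold 7.83. Both kept start regions in all 3 libraries.

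The reverse arrangement left the start bare in the knockouts. Dhtkd1, a mitochondrial dehydrogenase of lysine breakdown, had a wild-type-only start region of fold 10.4, and its far-end region had folds of 16.3 in the homozygous knockout, 14.0 in the heterozygous knockout and 15.2 in wild type. Uba7, the activating enzyme for ISG15, had a wild-type-only start region of fold 7.80 and a far-end region with folds of 10.3 in the homozygous knockout, 6.47 in the heterozygous knockout and 9.15 in wild type. As3mt, the arsenite methyltransferase, had a start region with a pile-up of 90 and a fold of 11.0 in wild type, and its kept peak was a heterozygous-knockout-only one of fold 3.97 at the far end. Siah3, of the SIAH family, had a wild-type-only start region of fold 8.25 and a far-end peak of fold 7.29 in the homozygous knockout only. Spef1l had a wild-type-only start region of fold 8.12 and a far-end peak of fold 5.49 in the heterozygous knockout only. A far-end peak can belong to a neighbouring gene, and of 230 member regions at far ends 29 had a RefSeq start of any gene within 1 kb.

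CpG content, which the peak rule did not use, was lower at these starts than at constant ones. Of 138 RefSeq starts covered by wild-type-only regions of genes left with none, 63 (45.7%, 95% Wilson interval 37.6% to 54.0%) had a CpG ratio of at least 0.6, with a median ratio of 0.549. Of 65 starts in wild-type-only regions counted with genes that keep a peak, 26.2% did, with a median of 0.463. Starts were grouped by the region that covers them. The 138 starts belong to 128 genes and the 65 to 62 genes, more than the 125 and 22 pairs given above. Some of them therefore lie in regions that are not at an end of the same gene. Among 6800 starts in constant regions the share was 82.9% (82.0% to 83.8%) and the median 0.818. Over all 21263 starts the share was 47.7% (47.0% to 48.3%) and the median 0.567, near the values of genes left with none. Starts covered by no region had a share of 29.8% (29.0% to 30.6%). Constant starts with a wild-type fold from 5.38 to 8.29, the middle range of the starts of genes left with none, had 81.3%. Width, pile-up and -log10 q were not matched, and a link between CpG content and peak strength was not tested. Starts in wild-type regions shared with the homozygous knockout alone had 56.5% (184 starts, 49.3% to 63.5%), an interval that overlaps that of genes left with none. Those shared with the heterozygous knockout alone had 70.3% (212 starts, 63.8% to 76.0%). Starts covered by a region with no wild-type peak had a share of 50.0% (162 starts, 42.4% to 57.6%). That interval overlaps the one of genes left with none and lies above the one of genes that keep a peak (17.0% to 38.0%), so for genes left with none a share below that of knockout-only starts was not shown.

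**Figure D5:**
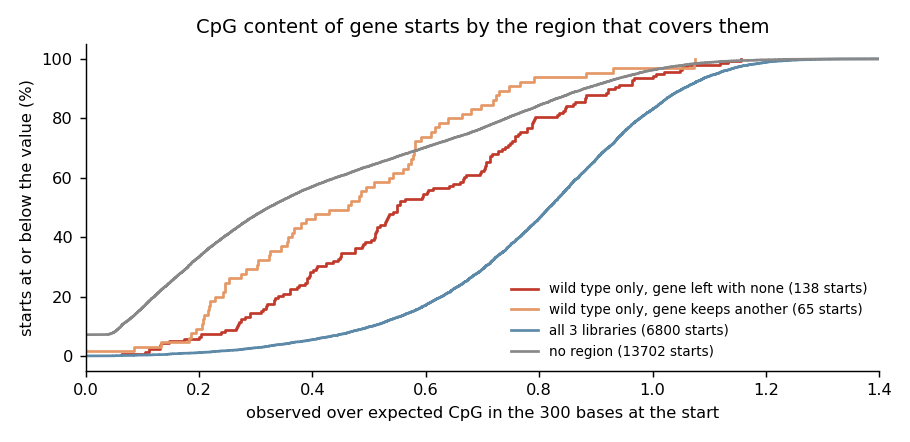
Cumulative share of RefSeq starts (vertical axis, %) by the ratio of observed to expected CpG in the 300-base window at the start, for starts covered by wild-type-only regions of genes left with none (138) or that keep another peak (65), by constant regions (6800) and by no region (13702). The wild-type-only curves lie to the left of the constant curve, with medians of 0.549 and 0.463 against 0.818. The median over all starts was 0.567. Starts are grouped by the region that covers them, which is not always at an end of the same gene.

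Short motifs were counted in the same windows on both strands. The SP/KLF motif GGGCGG was present in 59.4% of the starts of genes left with none, 68.1% of constant starts and 46.2% of all 21263 starts. The E-box CACGTG was present in 3.62% of starts of genes left with none, 10.4% of constant starts and 7.84% of all. The cAMP response element TGACGTCA was in 0 of the 138 starts, which allows a share of up to 2.17%, and in 3.78% of constant starts and 2.23% of all. The AP-1 motif TGACTCA was in 6.52%, 2.63% and 4.66% in the same order, and the RFX-type motif GTTGCCAT in 2.17%, 0.956% and 1.18%. The last of these is 3 starts among genes left with none. Of the 162 starts in regions with no wild-type peak, 11.7% had the AP-1 motif and 0 had TGACGTCA. CACGTG was in 9.88% of those 162 starts and GTTGCCAT in 0.617%. Of the 65 starts counted with genes that keep a peak, 3.08% had the AP-1 motif and 0 had TGACGTCA. GTTGCCAT was in 4 of those 65 starts (6.15%), a larger share than at genes left with none. The CCAAT box was in 31.9% of starts of genes left with none, 34.0% of constant starts and 38.2% of all, and the TATA motif TATAAA in 6.52%, 5.22% and 12.6%. The SP/KLF, E-box and cAMP response motifs each contain a CpG, which the CpG ratio also counts.

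EGF and ErbB genes are named in the study title. A member region was found in 50% of 4 EGF ligand genes and 10.5% of 19 ErbB genes, against 10.8% of all genes. Of 4 EGF family ligand genes with a wild-type gene-end region, Btc and Nrg2 had a wild-type-only one. Btc, which encodes the ligand betacellulin, was left with none, from a region of 205 bp with a fold of 5.99 and a pile-up of 18, inside the gene 136 bp from its start. It had no member region with shortened lists, with thinned wild-type pile-ups (floors of 10 and 15) or with a -log10 q of at least 10 or the wild-type median. Nrg2, a neuregulin, kept gene-end peaks with folds of 6.65 and 9.38 in the homozygous knockout and none in the heterozygous knockout, against 5.70 and 5.72 in wild type. Of 19 genes of ErbB receptors and their proximal regulators, the adaptor Gab2 and the phospholipase Plcg1 had a member region, and both kept a peak in all 3 libraries. None of 23 MAPK and immediate early genes had one. The background for having a member region is 10.8% of genes.

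Among 26 SWI/SNF subunit genes with a wild-type gene-end region, Smarcd3 alone had a wild-type-only one. That is 3.85%, against 10.8% of all genes with a member region and 4.83% left with none. Smarcd3 encodes the BAF60C subunit, and its region at chr5:24624154-24624724 had a fold of 6.62 and a pile-up of 20. Smarcd3 was left with none at its ends and held 3 peaks between them in the homozygous knockout, 1 in the heterozygous knockout and 3 in wild type. With the median -log10 q limit, and with thinned pile-ups and a floor of 15, 0 of 24 genes of this list had a member region.

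Of the beta-cell genes listed, Pax6, Scgn and Sytl4 were left with none. Of 17 beta-cell transcription factor genes, 3 had a member region (17.6%, against 10.8% of all genes), and Pax6, an islet master regulator, was left with none (5.88%, against 4.83%). Its region lay 252 bp upstream of the annotated start with a fold of 2.03 and a pile-up of 134, and 3 peaks lay within the gene in the homozygous knockout, 1 in the heterozygous knockout and 2 in wild type. Hnf4a, a nuclear receptor of liver and islet, had a member region 183 bp from a start region with a fold of 7.68 in the homozygous knockout, none in the heterozygous knockout and 7.57 in wild type. Of 28 insulin secretion and granule genes, 5 had a member region (17.9%) and 2 were left with none (7.14%). With peaks up to 500 bp apart merged, the share with a member region was 7.14%, against 6.24% of all genes. For the beta-cell transcription factors it was then 5.88%. Scgn, the calcium sensor secretagogin, had 2 strong wild-type-only regions (folds 4.64 and 4.42, pile-ups 111 and 101). It had no peak between its ends in either knockout and 5 in wild type. Sytl4, the granule protein granuphilin, had 1 of fold 5.01. Stx1a, a syntaxin of the exocytosis machinery, and Chga, the granule protein chromogranin A, kept a peak next to the member region.

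Ion channel and synaptic genes had a larger share of members than the 10.8% of all genes. Of 27 voltage-gated and potassium channel genes with a wild-type gene-end region, 8 (29.6%) had a wild-type-only one and 5 (18.5%) were left with none. Kcnk3, the acid-sensitive background potassium channel TASK-1, was the strongest, with a fold of 9.82 and a pile-up of 77 at chr5:30588135-30588885. Cacna2d2, an auxiliary calcium channel subunit, was left with no peak between its ends in either knockout and had 4 in wild type, but had no member region with shortened lists, with thinned pile-ups or with either -log10 q limit. Of 36 neuronal and synaptic genes, 9 (25%) had a member region and 5 (13.9%) were left with none. Cplx1, which encodes the fusion clamp complexin 1, had a fold of 8.07, and Sv2b, a synaptic vesicle protein, had regions of fold 6.74 and 3.37. Rab3c, a vesicle GTPase, had 2 regions of fold 6.40 and no peak between its ends in either knockout, against 5 in wild type. Of the 10 genes left with none in these lists, 3 had a strong region (Kcnk3, Kcnj9 and Sv2b). Kcnh6 had peaks 347 bp (homozygous knockout) and 358 bp (heterozygous knockout) from its region, and Dlg4 a homozygous knockout peak 188 bp away. Asking for no knockout peak within 1 kb left 4 channel genes (14.8%) and 4 synaptic genes (11.1%) with none, against 4.68% of all genes. With annotated starts alone it was 1 of 16 channel genes (6.25%) and 6 of 29 synaptic genes (20.7%), against 4.24%. At the median -log10 q limit it was 2 of 19 channel genes (10.5%) and 1 of 27 synaptic genes (3.7%), against 1.32%.

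Receptor tyrosine kinases outside the ErbB family were left with none in 4 of 18 genes (22.2%, against 4.83% of all genes), namely Ddr2, Ephb3, Alk and Fgfr4. Among wild-type peaks at or above the median -log10 q it was 0 of 7. Ddr2, a collagen receptor, had regions of fold 5.71 and 3.83. Alk kept 8 peaks between its ends in the homozygous knockout and 8 in the heterozygous knockout, against 17 in wild type, and had no member region with shortened lists, with thinned pile-ups or with either -log10 q limit. Fgfr4 had 2 far-end regions of fold 3.06 and 3.14. Of 30 cell-cycle genes, 7 had a member region (23.3%, against 10.8% of all genes) and 2 were left with none (6.67%, against 4.83%). Those were Ccnd3, a G1 cyclin, with 2 regions past its far end, and Cdkn1c, the inhibitor p57, with a region of fold 5.67 that was no member with shortened lists or thinned pile-ups. Top2a, Cdkn2b, Cdk1, Cdk4 and Aurkb kept start peaks in all 3 libraries beside the member region. With peaks up to 500 bp apart merged, 2 of 30 cell-cycle genes had a member region (6.67%, against 6.24% of all genes).

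The lists of other cell types held few genes with a wild-type gene-end region, so their shares are coarse beside the 10.8% and 4.83% of all genes. Among markers of alpha, delta and PP cells, Irx1 was left with none, of 2 with a wild-type gene-end region, with a fold of 7.03 and the nearest peak 664384 bp away in the homozygous knockout and 664367 bp away in the heterozygous knockout. Both mesenchymal genes with a member region, Twist1 (fold 5.67) and Snai1 (fold 5.36), were left with none, of 6 with a wild-type gene-end region. With shortened lists, with thinned wild-type pile-ups (floors of 10 and 15) and with a -log10 q of at least 10, 3 genes of that list had a wild-type gene-end region and 0 had a member region. The duct list (5 genes) gave Muc1, which kept its peak in the homozygous knockout (fold 7.68), had none in the heterozygous knockout and had one of fold 6.82 in wild type. The progenitor list gave Sox11, which kept a start peak in all 3 libraries. No acinar gene (of 1), immune or endothelial gene (of 3) or gene disallowed in beta cells (of 6) had a member region. Of 19 housekeeping genes, Rps18 and Eef2 had one and both kept other peaks. The clustered protocadherins, which share repeated structure, gave Pcdha5 (fold 9.14) and Pcdhb17 (fold 5.99), both left with none, of 27.

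A list of motile cilium, axoneme and related genes was written after several of them had been seen among the strongest regions, so its count is not independent of them. Of 59 such genes with a wild-type gene-end region, 29 had a wild-type-only one and 18 (30.5%) were left with none, against 4.83% of all genes. Of the 18, 11 held a strong region. The list includes Ninl, a centrosomal protein, and Rpgr, of the photoreceptor connecting cilium, which are not parts of a motile axoneme. The folds ranged from 3.56 at Tppp3, a tubulin-binding protein, to 14.2 at Ninl. Drc1, of the nexin-dynein regulatory complex, had a fold of 9.72 and Daw1, a dynein assembly factor, 9.77. Spag6l, of the central apparatus, had 9.46 and Rsph4a, of the radial spoke head, 8.22 in its higher region. Of the list's 96 genes in the table, 36 had a gene-end peak in the homozygous knockout, 37 in the heterozygous knockout and 59 in wild type, and none had one in a knockout without one in wild type. Leaving out genes left with none that held a strong region gave 7 of 48 (14.6%), against 423 of 11312 of all genes (3.74%). Across the alternative settings the share left with none ranged from 23.1% to 36.7%, while that of all genes ranged from 1.32% to 5.16%. The list and the libraries were the same in every setting, so neither this range nor the counts above are independent of how the list was chosen.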

How the data were processed

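H3K27ac ChIP-seq was measured in 1 library each of homozygous knockout, heterozygous knockout and wild-type MIN6 clones. The authors deposited peak lists holding a score, a fold enrichment (a ratio), a −log10 p and a −log10 q per peak; MACS2, bcl2fastq and mm10 are named per the submitters' processing notes, with versions, the aligner, any control and the calling threshold not given in the sources used here. Peaks overlapping by at least 1 bp were merged with Python 3.11.15 and pandas 2.3.3. Gene ends came from RefSeq (GRCm38.p6), and 17492 of 21887 genes had a strand. Whole pile-ups and the background were solved from fold and −log10 p under a Poisson model, to within 0.001, for 41489 of 41490 wild-type peaks and nearly all others. Scripts were tested on simulated data.

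Named were the 12 genes left with none and the 8 that keep a peak with the highest fold in a strong region, leaving out clone and prediction names; genes with 3 or more regions; members of 19 gene lists; and the regions nearest each threshold. The members and lists were chosen with earlier results of these data known, and the cilium list after its values were seen. With 1 library a genotype no test was made. Wilson 95% intervals cover counting error only. Repeats were not filtered, and peak sequences outside the RefSeq windows were not used here. Alternatives covered the distance, the merging, the peak thresholds and depth.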

Additional observations from a re-analysis of the deposited data

How the results depend on the processing

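No paired analysis was possible because each genotype has 1 library. Counts below run in the order regions, genes, genes left with none, genes that keep a peak, and percent of wild-type gene-end regions, against 1274, 1238, 553, 685 and 8.91% as reported. A distance of 500 bp gave 1011, 993, 509, 484 and 7.63%, and 2 kb gave 1693, 1659, 621, 1038 and 10.8%. Merging peaks up to 500 bp apart gave 687, 715, 537, 178 and 6.58%. Asking for no knockout peak within 1 kb gave 773, 697, 535, 162 and 5.4%. Only wild-type peaks at or above the median -log10 q gave 205, 213, 133, 80 and 1.85%. Shortening the lists gave 748, 759, 377, 382 and 5.69%. A -log10 q of at least 10 in all lists gave 1090, 1103, 532, 571 and 8.26%. Thinned wild-type pile-ups with a -log10 p floor of 10 gave 864, 875, 422, 453 and 6.53%, and with a floor of 15, chosen after seeing the data, 639, 679, 375, 304 and 5.46%. Annotated starts alone gave 976, 900, 401, 499 and 7.83%. Asking a knockout peak to cover 25% of the wild-type peak gave 1326, 1289, 556, 733 and 8.93%, each count within 1.5 times the reported one.

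The number of genes left with none stayed within 1.5 times of 553 in all settings except the median -log10 q one, while the genes that keep a peak ranged from 80 to 1038. The causes were not tested. All 12 leading genes left with none had a member region in every setting except Dazl (500 bp) and Zfp114 (starts alone). Per1 had none at 500 bp, and Per1, Mtg2 and Zcwpw1 had none with starts alone. Of the 99 named genes, between 41 and 99 had a member region, by setting. Depth limits all absent calls, since a knockout peak just under its calling threshold is not listed.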

Other observations

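Wild-type-only regions made up 12.9% of the 480 wild-type gene-end regions of chromosome X (95% Wilson interval 10.2% to 16.2%), the highest share of any chromosome, and 6.89% of the 363 of chromosome 18 (4.71% to 9.97%), the lowest among chromosomes with more than 1 such region. No chromosome was tested.

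There were 6 runs of 3 neighbouring genes left with none. In the run of Drc1, Cib4 and Kcnk3 on chromosome 5 all 3 regions were strong. The run of Il1rl1, Il18r1 and Slc9a2 on chromosome 1 held 2 regions, of which Il1rl1 and Il18r1 share 1 with a fold of 5.04.

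Gene families were grouped by symbol after the values were seen. Of 5 axonemal dynein heavy chain genes with a wild-type gene-end region, 4 were left with none and Dnah7b kept a peak. The 4 include Dnah7a and Dnah7c, near-identical copies whose values are uncertain, and only Dnah7a and Dnah9 held a strong region. Also left with none were 3 of 21 cilia and flagella associated genes and 6 of 21 interleukins and their receptors. For phosphodiesterases it was 4 of 11, and for leucine-rich repeat genes 7 of 36. For zinc finger genes it was 12 of 304 (3.95%), against 4.83% of all genes. Il18, an inflammasome-processed cytokine, had a fold of 10.5, the highest of the interleukin group.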
